A study of Mus musculus with 12 samples.

Results

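Sox1, Sox2, Sox5, Sox6, Sox8, Sox13 and Sox21 are 7 members of the SOX family of transcription factors with roles in neural stem cells and glia. They were chosen by name, and their rows were read from a table of 50600 gene IDs that also holds 13 other SOX genes. The libraries came from the dentate gyrus, the part of the hippocampus in which neurons are born in adult mice, of Nestin-GFP mice 6 to 9 weeks old. In these mice GFP is driven by Nestin regulatory sequence, which is active in neural stem and progenitor cells. All sorted cells were live and negative for the endothelial marker CD31, the leukocyte marker CD45 and the oligodendrocyte lineage antigens O1 and O4. GFP and the glutamate transporter GLAST then split the cells into 3 gates, with both signals present in the stem cell gate, no GLAST in the progenitor gate and no GFP in the astrocyte gate. Each library was made from 50 sorted cells, with 4 libraries for each of the 3 cell types. The study describes 1 mouse brain for each biological replicate, but the labels do not tie a library to an animal. Astrocyte and progenitor libraries are called a to d here because their columns carry no replicate number, and stem cell libraries are called 1 to 4 after their titles.

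SOX proteins bind DNA through an HMG box, a domain that fits into the minor groove and bends the helix, and they usually act together with a partner factor bound next to them. Sox1 and Sox2 are SOXB activators that keep neural precursors undifferentiated, and Sox21 is a SOXB repressor that opposes them. Sox5, Sox6 and Sox13 are SOXD proteins, which lack an activation domain, pair through a coiled coil and modulate other SOX proteins at shared sites. Sox8 is a SOXE protein, related to the glial regulators Sox9 and Sox10.

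The part of the HMG box that is most alike in the 7 genes shows how they group. The bases below are 20 codons of each gene's longest coding transcript in GENCODE M21 on GRCm38, 5′ to 3′ on the coding strand, with the positions identical in all 7 genes in capitals.
Sox1 (chr8:12396511-12396570, plus strand): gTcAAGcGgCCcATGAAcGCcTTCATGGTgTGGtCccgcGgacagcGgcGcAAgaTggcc
Sox2 (chr3:34650542-34650601, plus strand): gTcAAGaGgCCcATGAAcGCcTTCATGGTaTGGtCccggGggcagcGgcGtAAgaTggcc
Sox21 (chr14:118235555-118235614, minus strand): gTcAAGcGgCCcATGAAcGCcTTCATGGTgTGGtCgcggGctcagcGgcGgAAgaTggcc
Sox5 (chr6:143841220-143841279, minus strand): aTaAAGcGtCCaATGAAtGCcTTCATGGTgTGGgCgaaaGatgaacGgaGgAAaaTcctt
Sox6 (chr7:115489709-115489768, minus strand): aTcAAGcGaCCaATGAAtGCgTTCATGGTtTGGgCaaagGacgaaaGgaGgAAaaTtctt
Sox13 (chr1:133385512-133385571, minus strand): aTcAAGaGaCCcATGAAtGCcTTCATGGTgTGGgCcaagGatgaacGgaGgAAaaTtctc
Sox8 (chr17:25570169-25570228, minus strand): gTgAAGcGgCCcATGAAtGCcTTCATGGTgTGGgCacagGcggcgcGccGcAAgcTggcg
Of these 60 bases, 32 were the same in every gene. Over the whole box of 79 codons, the 3 SOXB genes shared 87.8% to 89.9% of their bases with each other, and the 3 SOXD genes shared 81.4% to 84.8%. Sox8 shared 66.2% to 67.5% with the SOXB genes and 51.5% to 56.5% with the SOXD genes. The longest run of identical bases between any transcripts of any pair was 38 bases, between Sox2 and Sox1 and between Sox2 and Sox21, which is shorter than a read of the study.

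**Figure D1:**
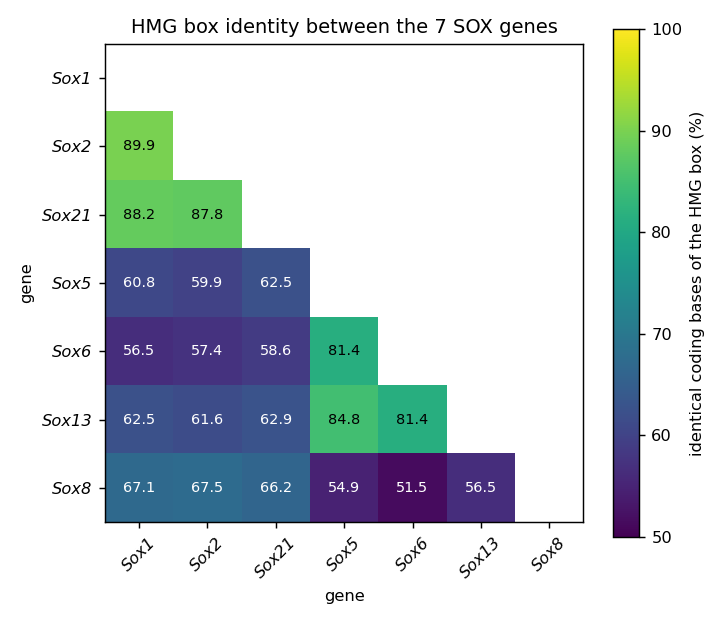
Percent of identical coding bases in the HMG box (79 codons) for each pair of the 7 genes, with genes on both axes and the value printed and colored in each cell. The SOXB block (Sox1, Sox2, Sox21) lies between 87.8% and 89.9%, the SOXD block (Sox5, Sox6, Sox13) between 81.4% and 84.8%, and every pair across blocks at 67.5% or less.

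The genes also differ in structure. Sox1 (chr8:12395295-12400126), Sox2 (chr3:34650405-34652461) and Sox21 (chr14:118233232-118237030) each consist of 1 exonic block, and Sox8 (chr17:25565892-25570686) of 3. Sox13 (chr1:133382303-133424377) has 14 exonic blocks, Sox5 (chr6:143828425-144781977) has 25 and Sox6 (chr7:115470872-116038796) has 25. Reads were counted without regard to strand, and antisense genes share 18.8% of the exonic bases of Sox21 (Gm4675), 10.6% of those of Sox8 (2810468N07Rik) and 9.25% of those of Sox5 (Sox5os1). Reads from those stretches cannot be assigned to either strand. The microRNA gene Gm25239 covers 1.78% of the exonic bases of Sox1, and no exonic base of Sox2, Sox6 or Sox13 is shared with another annotated gene.

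Total counts were 5357232 to 6253680 in astrocyte libraries, 9041498 to 12535028 in progenitor libraries and 5031166 to 10435711 in stem cell libraries. Levels are given as CPM, counts per 1000000 of the library total scaled by TMM (trimmed mean of M values), whose factors ran from 0.795 to 0.914 for astrocyte, 0.931 to 1.07 for stem cell and 1.16 to 1.20 for progenitor libraries. A level of 0 is compatible with up to 3 counts, counting error only. Depending on the library, this is 0.239 to 0.596 per 1000000 of the library total before TMM scaling. Stem cell libraries had the highest sums of 8 astrocyte markers, 26110 to 35340 CPM, against 17290 to 23340 in astrocytes and 8329 to 10990 in progenitors. The astrocyte gate thus did not carry the highest sum, although S100b had its highest mean there (178 CPM against 150 in stem cells). That mean includes 1 library at 414 CPM, and the S100b median was 115 CPM in astrocytes against 155 in stem cells. In astrocytes against stem cells, 0 of the 8 passed an adjusted p of 0.05 by edgeR's quasi-likelihood test, beside 0.0468% of all genes. Markers of oligodendrocyte precursors (6 genes) summed to 1925 to 3202 CPM in progenitors, 63.7 to 144 in stem cells and 43.1 to 321 in astrocytes. Markers of neuronal progenitors and immature neurons (8 genes) summed to 1214 to 2697 CPM in progenitors, against 96.6 to 220 in stem cells and 67.6 to 419 in astrocytes. Mural cell markers (5 genes) summed to 39.4 to 2100 CPM in progenitors and to at most 192 in any other library. Mature oligodendrocyte markers (6 genes) summed to 337 to 3205 CPM in astrocytes, 475.5 to 821 in stem cells and 249 to 417 in progenitors. Mature neuron markers (4 genes) reached 1200.0 CPM in 1 astrocyte library and at most 153 CPM in progenitors and 89.9 in stem cells. Microglial markers (6 genes) summed to at most 111 CPM and endothelial markers (4 genes) to at most 7.59, except for 115 CPM in stem cell 2. A difference in a bulk library can come from fewer cells of a type or from less RNA per cell, and the counts cannot tell these apart.

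All 7 genes were detected in all 3 cell types, at very different levels. Sox2, Sox5, Sox6 and Sox8 had at least 10 counts in 12 of 12 libraries, Sox1 and Sox21 in 11 and Sox13 in 8. Per kilobase of exonic length, the mean over the 12 libraries was 21.5 CPM for Sox8, 20.7 for Sox2, 17.1 for Sox6 and 11.2 for Sox5, while Sox21 was at 4.98, Sox13 at 1.94 and Sox1 at 1.18. On this scale Sox8 ranked highest of the 7 in 4 of 4 progenitor libraries. Sox2, Sox6 or Sox8 ranked highest in the astrocyte libraries, and in stem cells the top rank went to Sox2 in 2 libraries and to Sox8 and Sox5 in 1 each. The neighbors Sox8, Sox2 and Sox6 in this order overlapped widely in their per-length levels over the libraries.

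**Figure D2:**
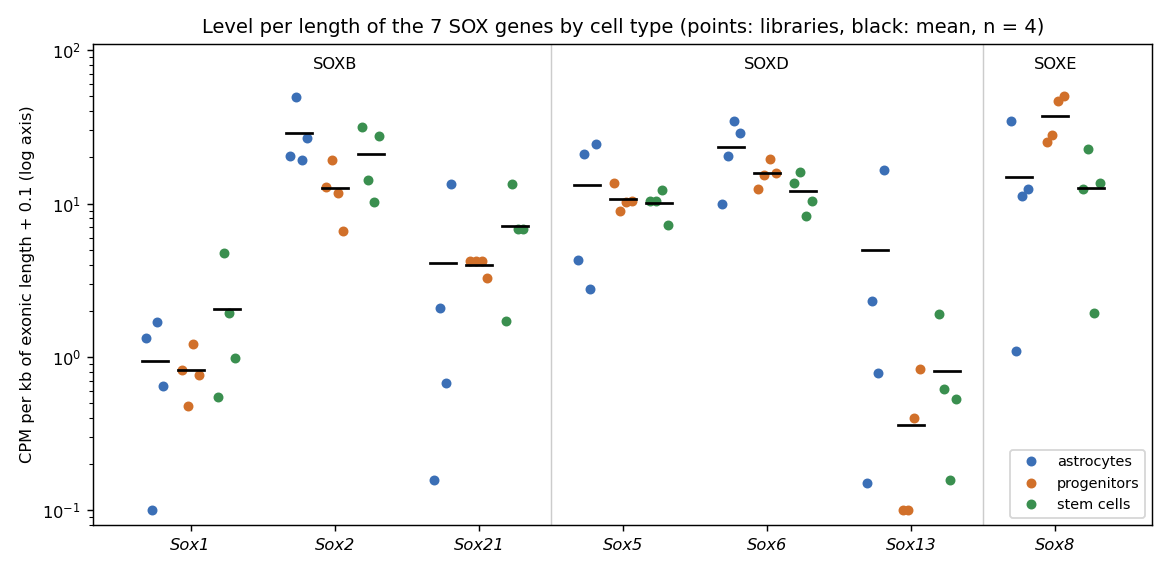
Level per length of each gene in each library, as CPM per kilobase of exonic length plus 0.1 on a log axis, with points for libraries colored by cell type and black bars for the means (n = 4). Sox2, Sox5, Sox6 and Sox8 lie mostly near or above 10, and the means of Sox21, Sox13 and Sox1 lie lower in every cell type. Points at 0.1 are libraries with 0 counts, which are astrocyte b for Sox1 and progenitors a and b for Sox13.

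Sox2, which marks neural stem cells and is also made by astrocytes, had its lowest mean in progenitors, although no comparison passed the test over all genes. It reached 41.5, 102, 39.1 and 54.7 CPM in astrocytes a to d, and 65.2, 29.2, 20.9 and 56.5 CPM in stem cells 1 to 4. In progenitors a to d it was at 26.3, 39.1, 23.7 and 13.5 CPM. Every astrocyte library lay above every progenitor library, but only just, since the lowest astrocyte library had 39.11 CPM and the highest progenitor library 39.09 CPM. Stem cell libraries overlapped with both. The means were 59.2 ± 29.0 CPM for astrocytes, 25.7 ± 10.5 for progenitors and 42.9 ± 21.2 for stem cells (SD, n = 4 each). Sox2 had a log2 fold change of 1.21 ± 0.68 (SE) in astrocytes against progenitors, and its adjusted p was 0.40 (edgeR's quasi-likelihood test, with p-values adjusted by the Benjamini-Hochberg method across every gene of the comparison). The two-sided exact permutation test of log2(CPM + 1), which cannot give less than 0.029 with 4 against 4 libraries, gave p = 0.029. Without the TMM factors the groups overlapped, with 33.0 CPM in the lowest astrocyte and 46.7 in the highest progenitor library. The summed astrocyte markers moved with Sox2 between these cell types, being higher in every astrocyte library than in every progenitor library. Taken singly, Slc1a2, Slc1a3, Aldoc and Aldh1l1 were separated in this way, whereas Aqp4, Gja1, Gfap and S100b overlapped. The part of these markers in the difference was not tested. Sox2 had values of -0.78 ± 0.49 in progenitors against stem cells (adjusted p = 0.42) and, in astrocytes against stem cells, of 0.46 ± 0.71 (adjusted p = 0.91).

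Sox1 had the lowest mean per kilobase over the 12 libraries, with its highest level in 1 stem cell library. By cell type, Sox13 was below Sox1 in progenitors (0.26 against 0.72 CPM per kilobase) and in stem cells (0.70 against 1.965). In astrocytes Sox13 was above Sox1 (4.855 against 0.84), where astrocyte d alone had 16.48. Sox1 was at 2.16, 22.7, 8.88 and 4.27 CPM in stem cells 1 to 4, and at 3.50, 1.84, 5.36 and 3.18 CPM in progenitors a to d. Astrocyte b had no Sox1 count at all, and the other astrocyte libraries had 5.96, 7.70 and 2.66 CPM. The groups overlapped in each pair of cell types. Stem cell 2, which held the highest level, was also the library with endothelial transcripts, 36.4 CPM of Cldn5 and 43.0 CPM of Flt1, a tight junction gene and a VEGF receptor gene of blood vessels. Their part in the Sox1 level was not tested. Sox1 had a log2 fold change of -1.48 ± 0.88 in progenitors against stem cells (adjusted p = 0.39), which lay between -1.81 and -0.60 when each library was left out in turn.

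Sox21, the SOXB repressor, varied little between progenitor libraries and widely elsewhere. Progenitors a to d had 15.6, 15.7, 15.6 and 12.04 CPM. Stem cells 1 to 4 had 6.16, 50.4, 25.5 and 25.5 CPM, and astrocytes a to d had 0.213, 7.49, 2.17 and 50.4 CPM. Of the stem cell libraries, 3 were therefore above all progenitor libraries and 1 below, whereas 3 astrocyte libraries were below all progenitors and 1 above. The coefficient of variation was 12.3% for progenitors, 67.5% for stem cells and 158% for astrocytes. Sox21 had log2 fold changes of -0.90 ± 0.60 in progenitors against stem cells (adjusted p = 0.46) and 0.03 ± 1.32 in astrocytes against progenitors (adjusted p = 0.99). Without astrocyte d the latter was -2.14 (adjusted p = 0.31), so a single library decided its direction. In astrocytes against stem cells it was -0.85 ± 1.40 (adjusted p = 0.92), and -3.05 without astrocyte d (adjusted p = 0.36).

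**Figure D3:**
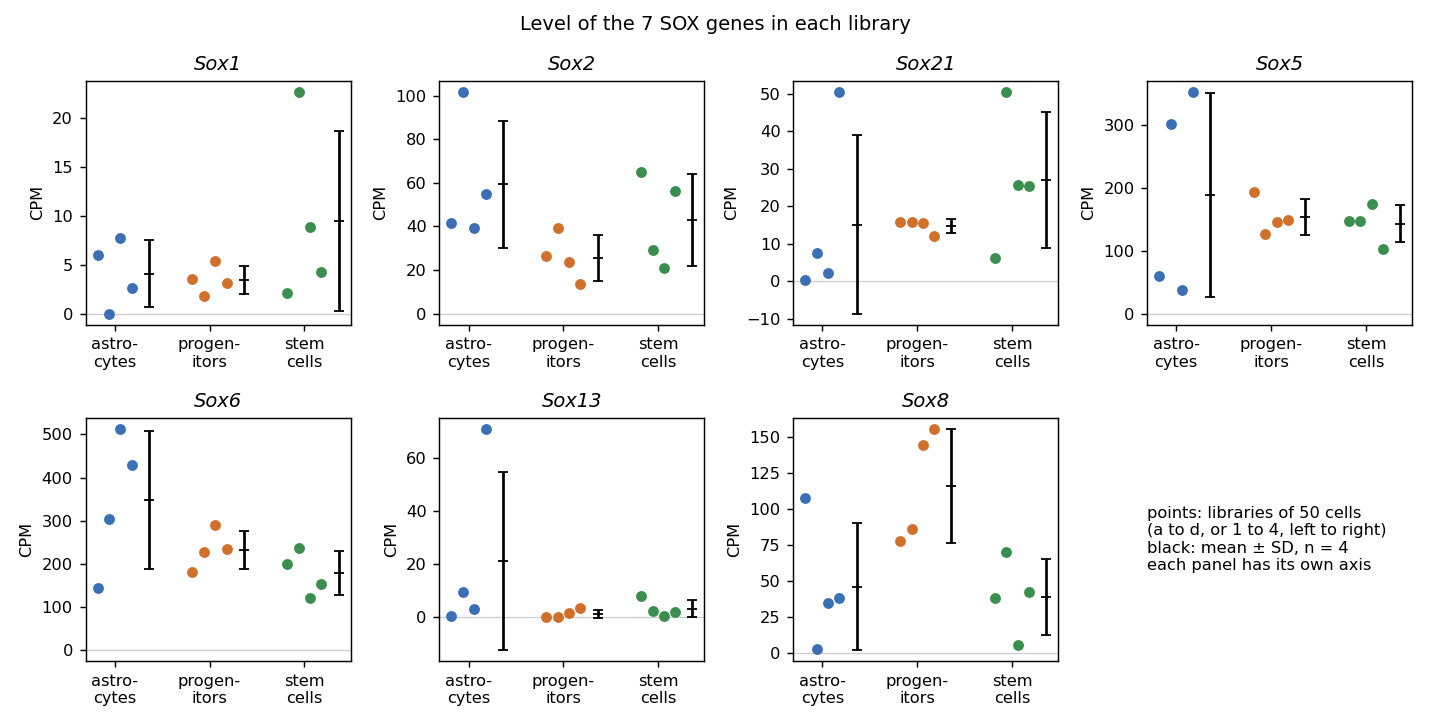
CPM of each of the 7 genes in every library, in 1 panel per gene with its own axis, points in library order within each cell type and black bars for mean ± SD (n = 4). Progenitor points of Sox8 (78.0 to 156 CPM) lie above all stem cell points (5.75 to 69.98), and single astrocyte libraries stand far above the rest for Sox13 (71.1 CPM) and Sox21 (50.4 CPM).

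The SOXD genes Sox5 and Sox6, which in the oligodendrocyte lineage hold back precocious differentiation, differed least between progenitors and stem cells. Sox5 was at 193, 127, 145 and 148.5 CPM in progenitors a to d and at 147, 147, 174 and 103 CPM in stem cells 1 to 4. The log2 fold change was 0.07 ± 0.22 (adjusted p = 0.92), with an interval of 2 standard errors from -0.37 to 0.50. This was the narrowest interval of the 21 made for the 7 genes. Sox5 split the astrocyte libraries into a low and a high pair, with 60.3 and 38.1 CPM in a and c and 302 and 352 CPM in b and d. Both pairs lay outside the range of the other 8 libraries, on opposite sides. The mean of 188 ± 162 CPM in astrocytes thus described none of the 4 libraries, and the log2 fold changes against progenitors (0.29 ± 0.66, adjusted p = 0.88) and stem cells (0.39 ± 0.66, adjusted p = 0.92) were small beside their errors. Without TMM factors the mean of Sox5 was 167 CPM in astrocytes and 182 in progenitors, which turns their order. The same scaling turned the order of these cell types for Sox1 (3.45 and 4.12 CPM) and Sox21 (13.7 and 17.5 CPM).

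Sox6 was present in every library at 122 CPM or more. Astrocytes a to d had 145, 304, 513 and 428 CPM, progenitors a to d had 182, 228, 289 and 234 CPM, and stem cells 1 to 4 had 199, 237, 122 and 154 CPM. Astrocytes b, c and d exceeded all progenitor and stem cell libraries, and astrocyte a was below all progenitors. The means were 347 ± 160 CPM in astrocytes, 233 ± 43.8 in progenitors and 178 ± 50.8 in stem cells. In astrocytes against stem cells the log2 fold change was 0.96 ± 0.43, with an unadjusted p of 0.048 and an adjusted p of 0.52 from edgeR's quasi-likelihood test. It remained positive, from 0.69 to 1.21, with each library left out. The adjusted p then ranged from 0.16 (without astrocyte a) to 0.91 (without stem cell 3). In progenitors against stem cells the value was 0.35 ± 0.24 (adjusted p = 0.47), and in astrocytes against progenitors 0.59 ± 0.41 (adjusted p = 0.51). Per kilobase of exonic length, Sox6 exceeded Sox5 in 9 of 12 libraries, the exceptions being astrocyte b, progenitor a and stem cell 3.

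Sox13 was the least often detected of the members. Progenitors a and b had no Sox13 count, and progenitors c and d had 1.29 and 3.18 CPM. Stem cells 1 to 4 had 7.80, 2.22, 0.250 and 1.86 CPM. Astrocyte d stood alone at 71.1 CPM from 348 counts, while astrocytes a to c had 0.213, 9.50 and 2.96 CPM. The groups overlapped in every comparison. Sox13 had a log2 fold change of 4.21 ± 2.10 in astrocytes against progenitors (adjusted p = 0.33), the highest estimate of the 21 and the one with the widest error, and it was 1.92 (adjusted p = 0.59) without astrocyte d. Against stem cells the astrocyte value was 2.76 ± 1.68 (adjusted p = 0.69), and 0.45 (adjusted p = 0.94) without that library. In progenitors against stem cells it was -1.47 ± 1.58 (adjusted p = 0.68).

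Sox8, the SOXE gene of the group, was higher in all 4 progenitor libraries than in all 4 stem cell libraries. Progenitors a to d had 78.0, 86.5, 145 and 156 CPM. Stem cells 1 to 4 had 38.6, 69.98, 5.75 and 42.4 CPM, and astrocytes a to d had 108, 3.11, 34.6 and 38.6 CPM. Progenitors and stem cells did not overlap under any of the 3 scalings tried, whereas astrocyte a lay within the progenitor range. The means were 116 ± 39.7 CPM in progenitors, 39.2 ± 26.3 in stem cells and 46.1 ± 44.2 in astrocytes. In progenitors against stem cells the log2 fold change was 1.53 ± 0.59, with an unadjusted p of 0.027 and an adjusted p of 0.16 from edgeR's quasi-likelihood test, so the difference did not pass the threshold of 0.05 over all genes. The adjusted p was 0.067 with DESeq2 and ranged from 0.065 to 0.69 over the alternatives with all libraries, and from 0.083 to 0.34 with 1 library left out. The exact permutation test gave p = 0.029, the smallest it can give. In astrocytes against progenitors the log2 fold change was -1.36 ± 0.83 (adjusted p = 0.45). Without astrocyte a it was -2.17, with an adjusted p of 0.12, the lowest of 0.12 to 0.73 with 1 library left out. In astrocytes against stem cells it was 0.22 ± 1.05 (adjusted p = 0.97).

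Transcripts of oligodendrocyte precursors, like Sox8, had their highest means in progenitors, but within a cell type not all of them followed Sox8. All 6 markers had at least 10 counts in every progenitor library. Of the 6, 5 were called higher in progenitors than in stem cells, where 8.6% of all genes were called in either direction. The SOXE relative Sox10, a defining gene of the oligodendrocyte lineage, was at 114 to 230 CPM in progenitors, at most 2.97 in stem cells and at most 5.92 in astrocytes. Within progenitors, libraries c and d had the highest values of Sox8, of Sox10 (192 and 230 CPM) and of the summed markers (3202 and 2957 CPM). Pdgfra and Cspg4 were also highest in c and d. Olig2 was instead highest in b (25.5 CPM) and lowest in d (16.7 CPM), and Olig1 was no higher in c (1063 CPM) than in a (1067 CPM). The astrocyte library with the highest Sox8, a, also had the highest summed precursor markers (321 CPM), but this sum was mostly Pdgfra, at 270 CPM against at most 6.76 CPM in the other astrocyte libraries. Other markers of the list were low in it, with Sox10 and Olig2 at 0.426 CPM each and Olig1 at 40.5 CPM against 178 in c and 148.5 in d. Astrocyte a also had the myelin gene Mbp at 2135 CPM and the highest astrocyte sums of mature neuron (1200.0 CPM) and immature neuron markers (419 CPM). The astrocyte library with the lowest Sox8, b, had the lowest summed markers of all 12 libraries (43.1 CPM). Stem cell libraries carried Sox8 at up to 69.98 CPM although Sox10 was at most 2.97 CPM in them and Pdgfra at most 5.25 CPM. Stem cell 2 had the highest Sox8 and the highest summed markers (144 CPM) of these libraries. Stem cell 3, with the lowest Sox8, had the highest Pdgfra (5.25 CPM) and Olig2 (18.1 CPM). The part of these transcripts in the Sox8 difference was not tested.

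**Figure D4:**
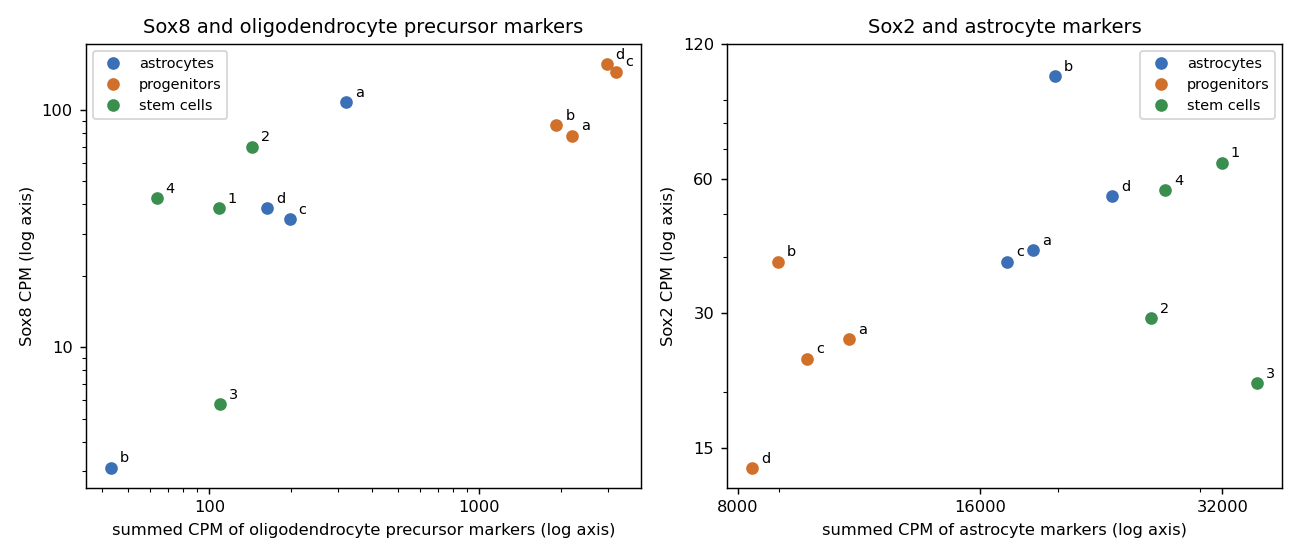
Left, Sox8 CPM against the summed CPM of 6 oligodendrocyte precursor markers. Right, Sox2 CPM against the summed CPM of 8 astrocyte markers. Points are libraries, lettered or numbered and colored by cell type, and all axes are log axes. Progenitors lie at the upper right for Sox8, with astrocyte a (108 CPM) the nearest library of another type, and at the lower left for Sox2, where the stem cell libraries with the least Sox2 (20.9 and 29.2 CPM) have the highest and the lowest astrocyte marker sums of the 4.

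Over genes as a whole, the spread between libraries followed the cell type. Among genes with at least 10 counts in 6 or more libraries, the median coefficient of variation was 103% for astrocytes (13784 genes), 34.8% for progenitors and 53.1% for stem cells. At a mean of 100 to 400 CPM, where Sox5 and Sox6 lie, it was 59.99%, 18.6% and 26.1% in that order. Sox6 was at 46.1%, 18.8% and 28.6%, close to this background in progenitors and stem cells. Sox5 was at 86.1% in astrocytes, above it, and at 18.4% in progenitors and 20.6% in stem cells. Not every member kept the order of the cell types. Sox1 and Sox2 were at 97.1% and 49.5% in stem cells, against 84.1% and 49.0% in astrocytes. Sox13 was at 134.5% in progenitors and 108.6% in stem cells. Sox8 was at 96.0% in astrocytes and 67.2% in stem cells, beside 102% and 48.7% over genes at 10 to 100 CPM, and at 34.2% in progenitors, where its mean lies in the 100 to 400 CPM range with a median of 18.6%.

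None of the 7 genes passed an adjusted p of 0.05 in any of the 3 comparisons by edgeR's quasi-likelihood test. In progenitors against stem cells 0 of 7 were called, where 8.6% of the 15427 genes tested were. In astrocytes against progenitors 0 of 7 were called, where 8.63% of 14806 genes were, and in astrocytes against stem cells 0 of 7, where 0.0468% of 12831 genes were. These shares of 7 genes come to less than 1 gene, so the counts of 0 do not set the members apart from other genes. DESeq2, which called 3092, 2968 and 876 genes in the same order, also called 0 of 7 in each. At an unadjusted p under 0.05, 1 of 7 passed in progenitors against stem cells (Sox8, beside 21.2% of all genes), 0 of 7 in astrocytes against progenitors (18.9%) and 1 of 7 in astrocytes against stem cells (Sox6, 9.55%). These counts changed with the method. DESeq2 gave 1, 2 and 0 of 7 in the same order, and edgeR without astrocyte a gave 3 of 7 in astrocytes against progenitors. The counts over all genes changed too. Without astrocyte a, 4249 of 16176 genes passed in astrocytes against progenitors. In the 3 comparisons DESeq2 passed 5004, 4956 and 2667 genes, where edgeR with all libraries passed 3278, 2792 and 1226. Groups did not overlap for 1 of 7 in the first of these comparisons (Sox8, beside 19.3% of all genes), 1 of 7 in the second (Sox2, 21.0%) and 0 of 7 in the third (9.97%). The comparisons share libraries in pairs, so they are not independent of each other. In progenitors against stem cells the median log2 fold change of the members was -0.78, beside 0.04 over all genes, with Sox5, Sox6 and Sox8 on the positive side and the 3 SOXB genes and Sox13 on the negative side. In astrocytes against progenitors it was 0.29 beside 0.03, and in astrocytes against stem cells 0.39 beside 0.14. The median standard error of the members was 0.59, 0.83 and 1.05 in these comparisons, against 0.65, 1.16 and 1.17 over all genes.

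**Figure D5:**
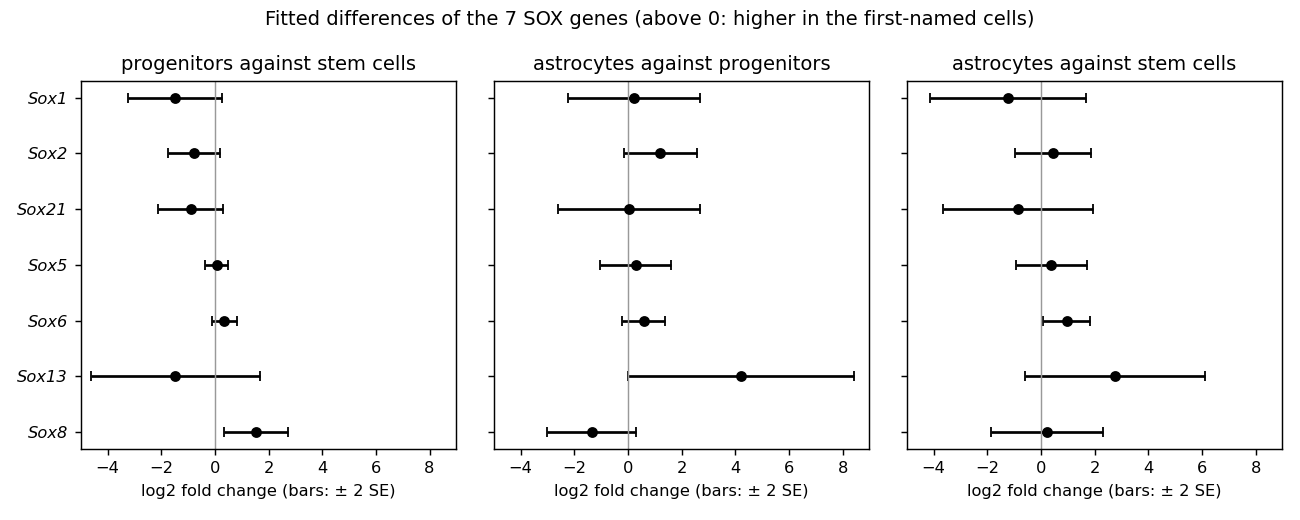
Log2 fold changes of the 7 genes in the 3 comparisons (points) with bars of 2 standard errors either way on a common horizontal axis, where positive values are higher in the first-named cells. The bars of Sox8 in progenitors against stem cells (0.35 to 2.72) and of Sox6 in astrocytes against stem cells (0.09 to 1.83) lie clear of 0. That of Sox13 in astrocytes against progenitors barely does (0.01 to 8.42), although its unadjusted p was 0.073 by edgeR's quasi-likelihood test. The bars are thus not confidence intervals.

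Other SOX genes did pass the test. Of 13 further family members, 6 could be tested in progenitors against stem cells, and 2 of them were higher in progenitors, the immature neuron gene Sox11 (log2 fold change 5.74 ± 0.79, adjusted p = 0.0025) and Sox10 (6.83 ± 0.89, adjusted p = 0.0020). Sox9, the SOXE gene that marks astrocytes and stem cells, was lower (-1.77 ± 0.20, adjusted p = 0.0010). In astrocytes against progenitors, Sox11 (-3.68 ± 0.85, adjusted p = 0.023) and Sox10 (-6.66 ± 1.32, adjusted p = 0.016) were lower among 5 tested, and 0 of 5 were called in astrocytes against stem cells. Of all genes, 8.6%, 8.63% and 0.0468% were called in these 3 comparisons, in either direction. Among the 3 SOXE genes, Sox8 and Sox10 had their highest mean in progenitors and Sox9 in stem cells. Sox10 was above 5.92 CPM in progenitor libraries and in no other, whereas Sox8 had at least 10 counts in every library. The median of the tested family members was 1.53, -3.25 and -0.74 in the 3 comparisons. Sox3, the SOXB gene closest to Sox1 and Sox2, was at 0 in 4 of 4 astrocyte libraries and at no more than 2.57 CPM elsewhere.

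Partner factors of SOX proteins were called in 1 of 14 cases in progenitors against stem cells, beside 8.6% of all genes, and in 3 of 14 in astrocytes against progenitors, beside 8.63%. The gene called in progenitors against stem cells was Nfib, a nuclear factor I gene of glial and neuronal differentiation, which was higher in progenitors (1.43 ± 0.24, adjusted p = 0.0065). In astrocytes against progenitors, 1 was higher, the chromatin remodeler gene Chd7 (1.63 ± 0.40, adjusted p = 0.029), and 2 were lower, Nfib (-1.78 ± 0.33, adjusted p = 0.016) and the POU factor gene Pou3f1 (adjusted p = 0.017), which had no count in any astrocyte library. In astrocytes against stem cells 0 of 13 were called, beside 0.0468% of all genes. The median log2 fold changes were -0.46, 1.10 and 0.32 in the 3 comparisons.

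Genes with known SOX-dependent expression moved in both directions. In progenitors against stem cells, 4 of 11 tested were called, beside 8.6% of all genes. The PDGF receptor gene Pdgfra (8.49 ± 0.94, adjusted p = 0.00094) and the Wnt inhibitor gene Apcdd1 (adjusted p = 0.0079, with 0 counts in every stem cell library), both expressed in the oligodendrocyte lineage, were higher. The Golgi protein gene Mmd2 (-0.96 ± 0.16, adjusted p = 0.0055) and the EGF receptor gene Egfr (-1.69 ± 0.33, adjusted p = 0.011) were lower. In astrocytes against progenitors, 11 were tested. Mbp was higher (3.85 ± 0.92, adjusted p = 0.026) and Apcdd1 lower (-6.18 ± 1.45, adjusted p = 0.024). Apcdd1 had 0 counts in 3 astrocyte libraries and at most 2 counts in any, so the size of its fold change rests on the floor. In astrocytes against stem cells 0 of 8 were called. The median log2 fold changes were -0.04, -0.81 and -0.62.

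The gene whose profile over the 12 libraries was most like that of Sox2 was Pou3f2, which encodes a POU factor of neural precursors. After both genes were centered on their own mean of log2(CPM + 1), they differed by a root mean square of 0.30, the smallest of 10953 protein-coding genes compared, where Sox2 itself varied by 0.75 about its mean and the median gene differed from it by 1.64. Pou3f2 was at 37.7, 140, 65.8 and 58.2 CPM in astrocytes a to d, at 28.2, 44.5, 33.4 and 20.7 CPM in progenitors a to d, and at 55.7, 44.0, 30.8 and 82.3 CPM in stem cells 1 to 4. Both genes peaked in astrocyte b and were lowest in progenitor d. Pou3f2 had log2 fold changes of -0.79 ± 0.40 in progenitors against stem cells (adjusted p = 0.30) and 1.26 ± 0.64 in astrocytes against progenitors (adjusted p = 0.34). The next gene was Rb1cc1, at 0.41. The pairs most alike for the other members were Nrd1 (0.31) and Preb (0.36) for Sox6, Dph5 (0.34) and Rab11b (0.38) for Sox5, and Tmem143 (0.55) and St6gal1 (0.56) for Sox21. For Sox1 they were Snrk (0.60) and Clcn6 (0.62), for Sox8 Zfp286 (0.61) and Rnps1 (0.62), and for Sox13 Crebl2 (0.92) and Acer3 (1.03). The nearest gene was the smallest of many differences over libraries that also share depth and scaling, so these values describe the profiles only.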

How the data were processed

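Poly(A) RNA from 50-cell sorts was preamplified (SMARTer v4) and made into Nextera XT libraries; the labels speak of triplicates, but 4 libraries per cell type were given. The authors trimmed reads, removed those matching rRNA, mitochondrial and PhiX sequence, aligned the rest with HISAT2 2.0.6 to GRCm38.p4 (per the submitters' processing notes) and counted them per GENCODE M14 gene with unstranded featureCounts. How reads with several matches were counted is not given in the sources used here. Values in the deposited table are raw counts, without molecular identifiers, so intervals and floors cover counting error only. A library's total depth sets the precision of low genes. No batch is given.

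Symbols were matched for 50376 of 50600 gene IDs. Exonic lengths, overlaps and coding sequence came from GENCODE M21, in which all 7 gene IDs have the same version. Each pair of cell types (8 libraries) was fitted with edgeR 4.0.16 (R 4.3.3; TMM, quasi-likelihood test, not robust) on genes that reached 10 counts in 4 or more libraries. Benjamini-Hochberg adjustment covered every gene tested, at a threshold of 0.05, and the fit was tested on simulated data. The SE of a log2 fold change was not fitted but taken as its absolute value over the square root of the quasi-likelihood F statistic. Single levels were compared as log2(CPM + 1) with an exact permutation test. Libraries of the same group differed by more than sampling noise. Alternatives were DESeq2 1.42.0, other scalings, filters and pseudocount, all 12 libraries in 1 fit, thinned counts and leaving out each library. Python 3.11.15 with numpy, pandas, scipy and matplotlib did the rest.

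The members, lists and tests were chosen with earlier results of these data known. Named are all members, listed genes that were called, and for each member the 2 genes with the most similar profile, as protein-coding genes that reached 10 counts in 6 or more libraries. Sox3, Pou3f2, Cldn5, Flt1 and other genes named beside a result were chosen after their values were seen.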

Additional observations from a re-analysis of the deposited data

Results flagged for a closer look

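In 21 groups of 4 libraries (7 genes in 3 cell types), 3 single libraries lay farther from the rest than Dixon's 95% limit for 4 values. Chance gives about 1 in 20 for normally distributed values, but the limit was applied to CPM without a log. The share of all genes beyond it was not counted, so the 3 cases were not set against a background. Sox13 in astrocyte d was at 71.1 CPM, where the other astrocyte libraries had at most 9.50 CPM. Sox21 in the same library was at 50.4 CPM, where the others had at most 7.49 CPM. Sox21 in progenitor d was at 12.04 CPM, below the 15.6 to 15.7 CPM of the other progenitor libraries. Sox21 and Sox13 were thus both far higher in astrocyte d than in the other astrocytes, and that library also had the highest Sox5 (352 CPM) of all 12.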

How the results depend on the processing

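No member was called in any comparison under any alternative. The direction of the members' fitted log2 fold changes was kept in 117 of 119 values with all libraries. With 1 library left out it was kept in 158 of 168. Reversed were Sox5 in astrocytes against progenitors with at least 10 counts in every library (-0.035) and Sox21 in that comparison with thinned counts (-0.037). With a library left out, the range crossed 0 for Sox5 in progenitors against stem cells (-0.057 to 0.18), for Sox1 (-0.31 to 0.65), Sox5 (-0.20 to 0.63) and Sox21 (-2.14 to 0.45) in astrocytes against progenitors, and for Sox5 (-0.13 to 0.71) and Sox8 (-0.63 to 0.65) in astrocytes against stem cells. CPM on library totals raised the progenitor means of all 7 members, as of every gene counted there, because all progenitor TMM factors were above 1 (1.16 to 1.20). The rise was more than 1 SD for Sox5 (to 182), Sox6 (to 277.5) and Sox21 (to 17.5). Direction also depended on the measure. In astrocytes against progenitors, the difference in mean log2(CPM + 1) was negative for Sox1 (-0.15), Sox5 (-0.27) and Sox21 (-1.29), where the main fit was positive. In astrocytes against stem cells the same held for Sox5 (-0.16) and Sox8 (-0.10).

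Genes called over the whole table depended on the method. DESeq2 called 3092 in progenitors against stem cells, 2968 in astrocytes against progenitors and 876 in astrocytes against stem cells. With all 12 libraries in 1 fit the first was 445 and the last 343. Without a filter the second was 529 and the last 16, and with at least 10 counts in every library they were 287 and 12. Leaving out 1 library gave 830 to 1383, 719 to 1871 and 0 to 8 genes. The count of 0 by edgeR arose without stem cell 3 or stem cell 4, where 970 and 985 genes had an unadjusted p under 0.05. The cause was not tested.

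No paired analysis was possible because the astrocyte and progenitor columns carry no replicate numbers, so the replicate block was not run. Sox1, Sox13 and Sox21 rest on few counts in several libraries, and their absence from the calls is no sign of equal levels.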
